A study of Arabidopsis thaliana with 4 samples.

Results

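The promoters of *Arabidopsis thaliana* protein-coding genes, taken as the 1 kb upstream of each annotated start, were examined for cytosine methylation by distance from that start. Of 27444 protein-coding genes on chromosomes 1 to 5, 26209 had at least 1 upstream base outside every annotated gene or pseudogene body, and 11247 had the whole 1 kb outside. Bases inside bodies were removed. A site was counted where it was listed with a depth of 5 to 50 reads in all 4 libraries, which left 136799 promoter sites of 1808962 such sites in the nuclear genome. Of these, 65102 were CG, 30197 CHG and 41500 CHH sites, where H is A, C or T.

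The libraries came from enzymatic methyl-seq (EM-seq), in which enzymes convert unmethylated cytosines so that they are read as T. Shoot apices received 0.025% of the wetting agent Silwet, alone in the 2 mock libraries and with 1 mM sodium nitroprusside (SNP), a donor of nitric oxide (NO), in the 2 SNP libraries, and were collected after 24 h. The labels name the genotype Col-0, whereas the methods of the study describe *ap1/cal* apices, an inflorescence mutant whose meristems proliferate in place of flowers. The SNP libraries therefore share Silwet and any such mutation with the mock libraries. Each library held a mixture of all cells of the apex, and the methods of the study speak of biological replicates without saying which plants or pools a library came from. The p-values measure the spread between these libraries.

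In plants, CG methylation is copied after replication by MET1, CHG methylation by CMT3, which reads a histone mark, and CHH methylation is laid down by DRM2 under the guidance of small RNAs (RNA-directed DNA methylation, RdDM) or by CMT2 in heterochromatin. RdDM is known to act at the edges of transposons and at repeats near genes. Most Arabidopsis promoters carry little methylation, and genes such as *FWA* and *SDC* are known as genes held silent by methylated repeats upstream.

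Some of the promoter intervals on which the results turn are printed 5′ to 3′ along the strand of the gene (TAIR10.1 assembly, RefSeq), from the farthest to the nearest counted site of the named context with a flank of up to 6 bases. Capitals mark the counted cytosines, C on the printed strand and G opposite a cytosine of the other strand. The first 3 show CHH sites with large differences between treatments, the next one a dense run of CHH sites from one of the promoters with high CHH levels, the *ROS1* interval the CHH sites next to the start of a demethylase gene, and the last 4 the CG or CHG sites of promoters past the test threshold.
AAH (CHH, chr4:10860382-10860466, + strand): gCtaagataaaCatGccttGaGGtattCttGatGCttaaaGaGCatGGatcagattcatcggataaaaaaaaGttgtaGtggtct
AT5G24215 (CHH, chr5:8221103-8221169, + strand): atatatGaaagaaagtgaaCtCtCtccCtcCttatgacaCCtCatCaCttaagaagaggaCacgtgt
ABCB14 (CHH, chr1:9762609-9762676, + strand): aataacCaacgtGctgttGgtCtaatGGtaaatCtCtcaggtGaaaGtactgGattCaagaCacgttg
AT3G13700 (CHH, chr3:4494164-4494360, - strand): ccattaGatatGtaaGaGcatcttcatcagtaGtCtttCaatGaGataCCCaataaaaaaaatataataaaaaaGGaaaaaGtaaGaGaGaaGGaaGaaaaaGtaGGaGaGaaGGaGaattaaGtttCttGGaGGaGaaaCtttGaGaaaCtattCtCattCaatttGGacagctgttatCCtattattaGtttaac
ROS1 (CHH, chr2:15314808-15314845, - strand): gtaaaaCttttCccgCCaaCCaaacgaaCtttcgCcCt
QQS (CG, chr3:12348849-12349033, + strand): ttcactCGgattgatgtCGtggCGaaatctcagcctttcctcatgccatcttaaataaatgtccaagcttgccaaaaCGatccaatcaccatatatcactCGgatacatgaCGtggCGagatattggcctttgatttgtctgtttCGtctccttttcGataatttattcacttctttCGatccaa
CYP71B23 (CG, chr3:9595509-9595765, - strand): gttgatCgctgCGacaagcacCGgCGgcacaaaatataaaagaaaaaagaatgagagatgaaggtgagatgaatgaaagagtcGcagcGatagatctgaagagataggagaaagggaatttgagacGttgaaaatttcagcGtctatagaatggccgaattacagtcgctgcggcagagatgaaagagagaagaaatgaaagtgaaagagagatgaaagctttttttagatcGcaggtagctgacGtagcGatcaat
MBR1 (CHG, chr2:6772263-6772384, + strand): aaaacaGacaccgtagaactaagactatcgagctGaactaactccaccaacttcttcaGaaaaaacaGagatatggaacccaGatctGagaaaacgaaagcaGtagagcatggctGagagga
AT1G09490 (CHG, chr1:3063586-3063650, + strand): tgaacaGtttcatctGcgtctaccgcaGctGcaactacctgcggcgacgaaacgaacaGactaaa

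Only cytosines called as methylated were deposited, with 2 methylated reads as the least found, and from a depth of 13 reads in mock 1 and SNP 1, 18 in mock 2 and 12 in SNP 2 more were required. A site counted here was therefore called methylated in all 4 libraries, a full loss or gain of methylation at a site could not be seen, and the levels given are levels of listed sites rather than of all promoter cytosines. Median depth at counted promoter sites was 11 reads in mock 1, 10 in mock 2 and SNP 1 and 9 in SNP 2, in each context.

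To ask where in the promoter methylation was found, counted sites were set against all cytosines of the same context in 100 bp steps. The share counted was lowest next to the start. The lists give no depth for unlisted cytosines, so those without methylation and those with too few reads could not be told apart. In the first 100 bp, 3.67% of CG, 2.52% of CHG and 0.346% of CHH cytosines were counted. These shares rose with distance, to 16.1% of CG and 9.85% of CHG cytosines at 901 to 1000 bp and to 1.52% of CHH cytosines between 800 and 900 bp. Most of the rise in CHH lay within the first 400 bp, where the share had reached 1.42%, while the CG share was 13.3% there. Each site was given to its nearest start, so that bases far from a start came from wide intergenic intervals. The base composition was similar along the promoter, with 31.7% G and C in the first step and 28.8% to 29.8% in the other 9.

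**Figure D1:**
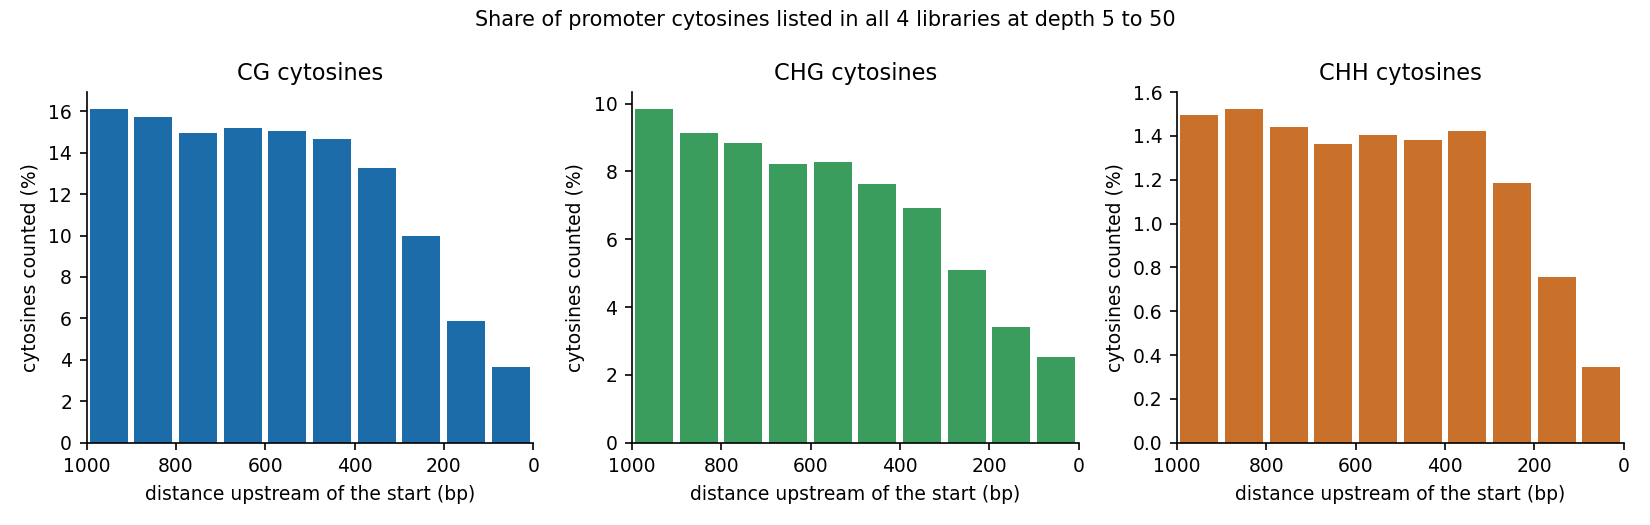
Share of promoter cytosines of each context counted in all 4 libraries (vertical axes in percent, starting at 0) by distance upstream of the start (horizontal axes in bp, 100 bp steps). The first 100 bp hold the lowest share in each panel, 3.67% for CG, 2.52% for CHG and 0.346% for CHH.

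Dense CHH methylation was found in few promoters. At least 10 counted CHH sites were held by 1700 of the 26209 promoters, or 6.49% (exact 95% binomial interval 6.19% to 6.79%, counting error only). With 5 or more sites this was 9.56%, and with 20 or more it was 2.90%. By comparison, 16.4% of promoters held at least 5 CG sites and 9.63% at least 5 CHG sites. In single libraries, where no other library had to list the site, the share with at least 10 CHH sites was 15.1% and 17.2% for mock 1 and mock 2 and 15.6% and 14.5% for SNP 1 and SNP 2. The groups overlapped, with a difference of -1.11 points against a pooled replicate SD of 1.21 (exact two-sided permutation test, p = 0.667, n = 2 per group).

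The 1700 CHH-methylated promoters differed from promoters at large in their surroundings. The nearest upstream neighbour was a pseudogene in 16.3% of them and in 6.54% of all promoters, and the whole 1 kb lay outside gene bodies in 74.9% and 42.9%. Windows of 500 kb with fewer than 50 protein-coding genes held 710 promoters, of which 13.8% (11.3% to 16.6%) had at least 10 CHH sites, compared with 6.28% (5.99% to 6.59%) of the other 25499. Along the chromosomes the share ran from 5.94% on chromosome 1 to 7.35% on chromosome 2. CG methylation was present in most of them, as 82.0% held at least 5 CG sites. Their GC content was 28.6% compared with 29.8% for all promoters. Widths available for counting differ between these sets, and no test was made of the surroundings.

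Within the CHH-methylated promoters, the counted CHH site nearest to the start lay within 100 bp in 275 promoters and beyond 500 bp in 503, with a median of 334.5 bp. The motif TATAAA, the core of many TATA boxes, was searched on both strands in the 100 bp before the start (its reverse complement reads TTTATA). It was found in 28.5% of the CHH-methylated promoters, in 26.9% of those with a CHH site in the same 100 bp, and in 26.3% of all 26209 promoters. A match describes the letters only.

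To test whether SNP changed promoter methylation, the methylated share of all reads was computed over the counted sites of each context and taken as its methylation level. At CG sites mock 1 had 87.9%, mock 2 87.5%, SNP 1 86.2% and SNP 2 86.3%, the order in which values are given from here on. The SNP libraries were lower without overlap, with a difference of -1.43 points that exceeded the pooled SD of 0.184. At CHH sites the level was 50.3%, 48.3%, 51.7% and 51.8%. Here both SNP libraries were above, by 2.48 points against an SD of 1.01, and the mock libraries stood further apart from each other than the SNP libraries did. At CHG sites the level was 66.6%, 66.2%, 67.2% and 66.7%, a difference of 0.522 points with an SD of 0.316 and a gap of less than 0.1 points between mock 1 and SNP 2. An exact two-sided permutation test gave p = 0.33 in each context, which is the smallest value that 2 against 2 libraries allow.

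These differences did not rest equally on all libraries. The CHH difference was 1.47 points without mock 2 and 3.49 without mock 1. The CHG difference was 0.315 points without mock 2 and 0.283 without SNP 1, and with at least 10 reads in each library it turned to -0.0386 points, with overlapping groups. As the SNP libraries were slightly shallower, each site was also thinned to its lowest depth over the libraries. The CHH difference was then 1.57 points (SD 0.925) and the CG difference -1.42 points (SD 0.140), both without overlap, whereas the CHG difference was 0.0976 points (SD 0.375). Mock 2, which had the lowest CHH level, was also the library that listed sites with 2 methylated reads up to the greatest depth. Where at least 4 methylated reads were required in every library, the CHH difference was 2.15 points (SD 1.07), again without overlap. A fixed number of methylated reads asks for a higher level in a shallower library, however. Median depth at CHH sites was 11 reads in mock 1 and 9 in SNP 2. This minimum therefore cannot tell a difference in methylation from one in depth or listing.

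By distance, the CG level was lowest in the first 200 bp. The CHH level peaked at 53.7% (mean of the libraries) at 101 to 200 bp, with 51.8% in the first 100 bp and 52.4% at 201 to 300 bp. It was lowest at 501 to 600 bp, with 48.3%, so that it did not fall steadily with distance. In the first 200 bp the CHH level was 52.7%, 50.9%, 54.5% and 54.2%, and in the farthest 200 bp it was 48.5%, 46.5%, 49.8% and 50.5%. Near minus far this amounted to 4.20, 4.40, 4.66 and 3.66 points, so that every library showed the slope. The SNP libraries lay on both sides of the mock libraries, with a difference in slope of -0.140 points against an SD of 0.511 (exact permutation test, p = 1). Without SNP 2 it was 0.361 points, and it also changed sign at a minimum depth of 10 reads (0.338 points). The few sites near the start thus carried a slightly higher level than the many sites further out, but this slope depended on the depth limits. The mean CHH level of the first and the last 100 bp was 51.8% and 49.1% at depth 5 to 50, 42.6% and 42.7% at depth 10 to 50, and 26.8% and 45.3% with no upper limit.

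In CG the slope ran the other way. The level near the start minus that in the farthest 200 bp was -2.12, -2.34, -2.71 and -2.60 points. The SNP libraries were both lower, with a difference in slope of -0.422 points (SD 0.121). For CHG the corresponding values were 1.45, 0.724, 1.72 and 1.38 points, with overlap between groups. The CHH slope was also seen in the 44 promoters that held at least 5 counted CHH sites at both ends. There the mean level near the start was 56.4% ± 0.108 in mock and 57.4% ± 0.467 in SNP libraries, and at the far end 48.2% ± 2.84 and 49.3% ± 1.24 (SD, n = 2).

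**Figure D2:**
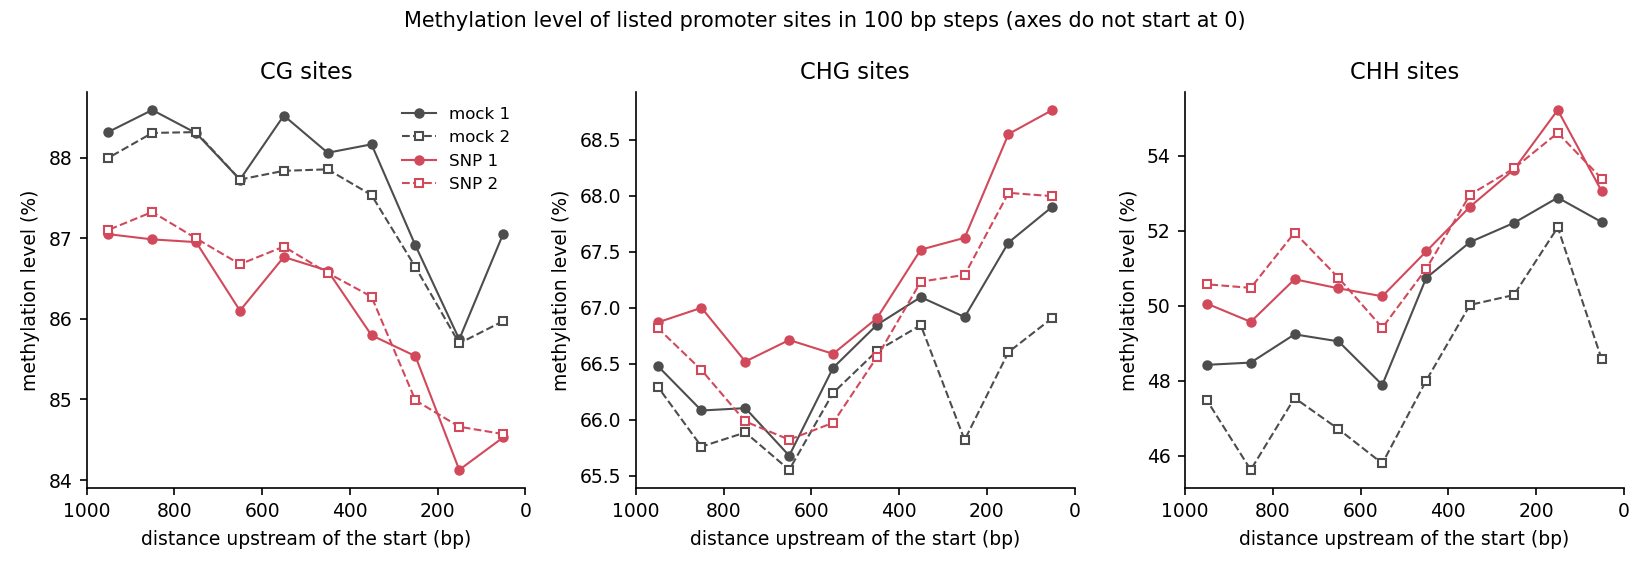
Methylation level of counted promoter sites (vertical axes in percent, not starting at 0) by distance upstream of the start (horizontal axes in bp, 100 bp steps), with 1 line per library and 1 panel per context. The red SNP lines lie below the grey mock lines in all 10 CG steps and above them in all 10 CHH steps.

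The direction of the difference was the same along the whole promoter in CG and CHH. In all 10 CG steps the SNP libraries were lower without overlap, by 1.08 points at 901 to 1000 bp to 1.96 points in the first 100 bp. In all 10 CHH steps both were above, by 1.84 points at 401 to 500 bp to 2.99 points at 501 to 600 bp. Each of these differences exceeded its own pooled SD, which for CHH reached 1.83 points in the first 100 bp. In CHG both SNP libraries were above in 7 steps, by at most 1.20 points at 101 to 200 bp, and the groups overlapped from 401 to 600 bp and from 701 to 800 bp. Across the 30 tests the smallest adjusted p was 0.370 (exact permutation tests, Benjamini-Hochberg), so that no single step can be called different in this design.

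**Figure D3:**
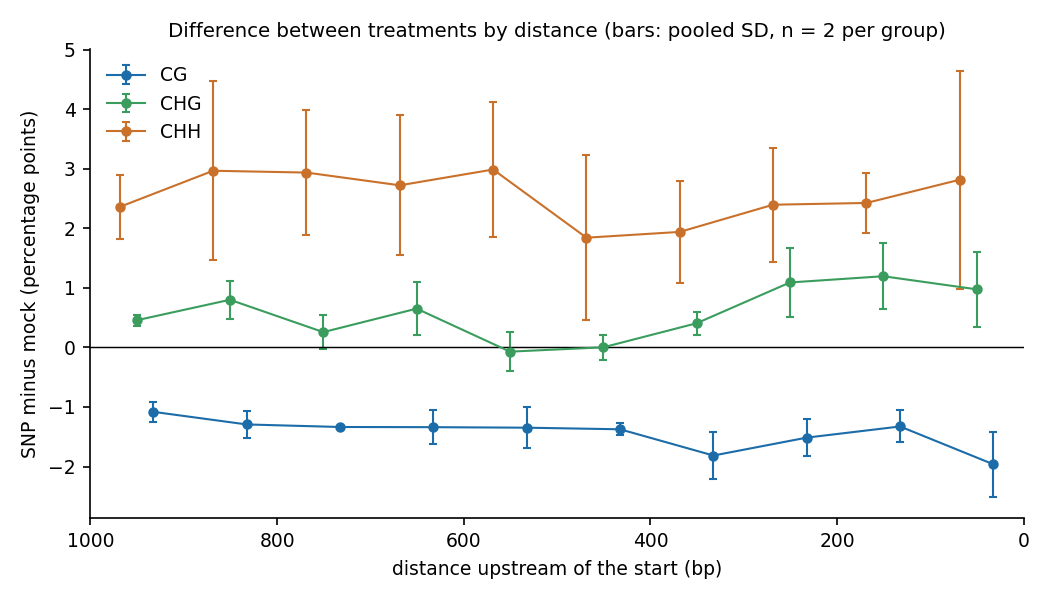
SNP minus mock methylation level (vertical axis in percentage points) by distance upstream of the start (horizontal axis in bp) for the 3 contexts, where points are differences of group means and bars are the pooled replicate SD. CG differences run from -1.96 to -1.08 points, CHG differences from -0.0706 to 1.20 points and CHH differences from 1.84 to 2.99 points.

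To ask whether this was particular to promoters, the same levels were computed in gene bodies, in the 1 kb downstream of genes and in other sequence. CG methylation within genes marks the transcribed part of many expressed plant genes and is kept by MET1. The CG difference was -2.69 points in gene bodies (SD 0.224), -1.25 downstream (SD 0.155) and -0.351 in other sequence (SD 0.127). Promoter minus gene body level was -0.238, -0.223, 1.10 and 0.976 points. The groups did not overlap, and the change between treatments was 1.27 points smaller in size in promoters than in gene bodies, against an SD of 0.0628 (exact permutation test, p = 0.33, adjusted p = 0.750 over 9 comparisons). For CHH the difference was 2.66 points in gene bodies, 2.82 downstream and 3.14 in other sequence, and promoter minus class differences overlapped between the groups for all 3 classes. Among listed CHH sites, those of promoters had the highest level of the 4 classes, with a mock mean of 49.3% compared with 46.6% downstream, 44.6% in gene bodies and 42.1% in other sequence.

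**Figure D4:**
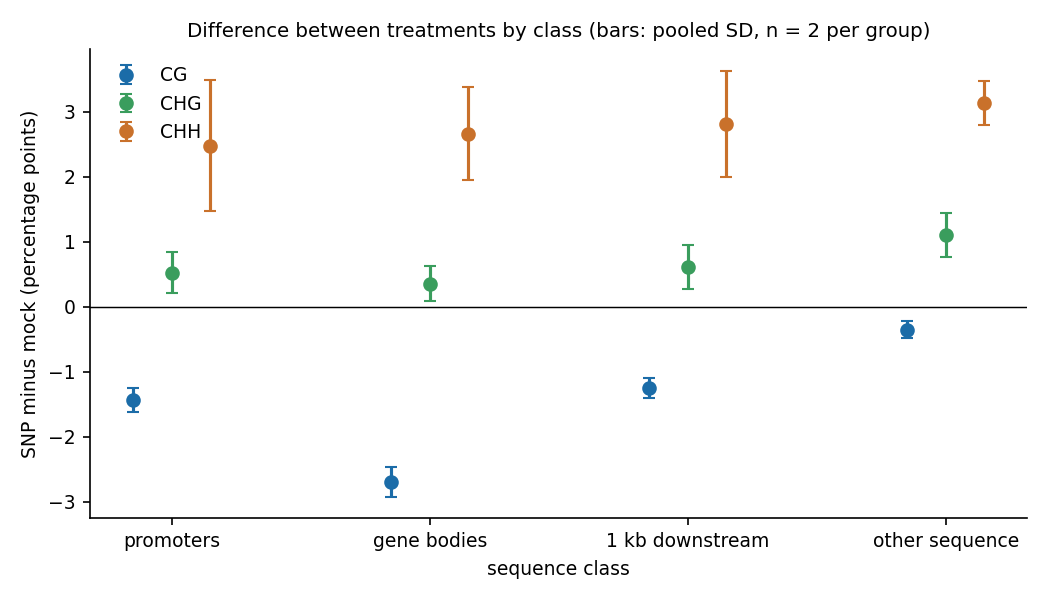
SNP minus mock methylation level (vertical axis in percentage points) in 4 sequence classes (horizontal axis) for the 3 contexts, where points are differences of group means and bars are the pooled replicate SD. The CG difference is -1.43 points in promoters and -2.69 in gene bodies, and the CHH differences lie between 2.48 and 3.14 points.

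Promoter sites were divided further by features that had played no part in choosing them. The 9 CHH trinucleotides had similar levels, from 48.8% at CAA to 52.7% at CTC, and their differences between treatments ran from 1.97 points at CAC to 2.81 points at CAT, each without overlap. Among CHG sites, those in CCG stood apart. Their level was 51.5%, 50.4%, 53.4% and 53.9%, whereas CAG and CTG sites together had 69.2%, 68.9%, 69.6% and 68.9%. Thus CCG sites had a level close to that of CHH sites, and a difference of 2.73 points (SD 0.602) compared with 0.144 points (SD 0.358) at CAG and CTG sites. CCG minus the others was -17.8, -18.5, -16.2 and -14.9 points, a change of 2.58 points against an SD of 0.738 without overlap (exact permutation test, p = 0.33).

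Strand and orientation made little difference to the levels. CHH sites on the strand of the gene and on the opposite strand had mean levels of 50.3% and 50.7%, and promoters with a divergent and a tandem upstream neighbour had 50.6% and 50.5%. By contrast, the surroundings went with the level in opposite ways in CHH and CG. In gene-poor windows the mean CHH level was 43.6% and the mean CG level 91.7%, compared with 51.0% and 86.1% elsewhere. Where the upstream neighbour was a pseudogene the CHH level was 47.5% and the CG level 90.0%, compared with 51.2% and 86.1% where it was a gene. The CG difference between treatments was -0.699 points in gene-poor windows and -1.57 elsewhere, while the CHH difference was 2.48 points in both. Of the 54 tests of this kind, none had an adjusted p below 0.360 (exact permutation tests).

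To find single promoters that changed, methylated and unmethylated counts of each promoter were tested with the quasi-likelihood test of edgeR. The 1700 promoters tested for CHH had a median level of 51.3% and ranged from 26.4% to 84.5%, with 8 above 80% and none below 20%. The lower end was set by the listing, as a counted site had at least 2 methylated reads in every library at a median depth of 9 to 11 reads. None of the 1700 passed an adjusted p of 0.05 (0%), and 125 had an unadjusted p under 0.05, 96 of them higher and 29 lower in SNP. The smallest adjusted p was 0.620. Limma on log2 ratios also called 0. The absence of calls does not exclude moderate changes, as edgeR detected only 34 of 100 simulated CHH changes of 15 points. In 28.3% of the 1700 promoters both SNP libraries were above both mock libraries and in 10% both were below. The median difference of 2.36 points was smaller than the median pooled SD of 5.47 points within single promoters. When single libraries were left out, 6 promoters passed without mock 1, 6 without mock 2, 4 without SNP 1 and 0 without SNP 2.

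Of 4305 promoters tested for CG, 10 passed (0.232%), all of them lower in SNP. Of 2524 tested for CHG, 4 passed (0.158%), 3 higher and 1 lower. Of the CG promoters, 26.9% had both SNP libraries below the mock libraries and 12.9% above, and in CHG the shares were 17% below and 20.3% above. For comparison, 660 of 13365 gene bodies (4.94%) passed in CG, 10 of them higher, and 0.9% of 1445 gene bodies in CHG. Gene bodies held 445188 counted CG sites and promoters 65102, which is more per region tested in gene bodies. The shares called in CG are therefore not directly comparable. In the downstream kb 0.162% of 2469 regions passed in CG. The median CG level of the promoters was 88.7%, with 3472 above 80%. The CG calls were not stable. Without SNP 1 or without SNP 2 there were 0, without mock 1 there were 3, 2 of them lower, and limma called 0, with 357 at an unadjusted p under 0.05. With the replicate number as a block there were 27, and whether that number pairs the libraries is not known. The CHG calls fell to 0 without mock 1 or without SNP 1.

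The 10 CG promoters comprised 9 separate sets of sites and shared a high level in mock. They were picked on these same values, and 3472 of the 4305 promoters tested had a mean level above 80%. Their high mock level is therefore no separate finding. In the mock libraries their levels lay between 91.7% and 97.9%, and in the SNP libraries between 49.1% and 87.2%. Only *HCF136* and *CYP71B23* also held at least 10 CHH sites, and the others were chosen for description after their values were seen. The lowest levels were found upstream of AT3G45630, which encodes a protein with an RNA recognition motif. Its 5 CG sites, at 789 to 964 bp, had 96.2%, 95.8%, 49.1% and 67.2% (site depths summing to 53 to 72 per library, adjusted p = 0.00795). The SNP libraries were far below, and differed from each other by more than the mock libraries did.

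Upstream of *THO2*, a subunit of the THO complex that acts in mRNA processing and export, 23 CG sites had 96.7%, 93.2%, 76.1% and 77.6% (adjusted p = 0.00795). *CYP71B23* encodes a cytochrome P450, and the 14 CG sites printed for it, at 232 to 476 bp, had 96.1%, 94.1%, 74.8% and 77.4% (difference -19.0 points, SD 1.64, adjusted p = 0.0347). Replicates were close in both, and 12 of the 14 *CYP71B23* sites were lower in the SNP mean. The CHH sites of the same *CYP71B23* promoter, 20 in number, had 51.4%, 50.4%, 53.1% and 50%, with overlap. In *HCF136*, a photosystem II assembly factor, 26 CG sites had 96.9%, 93.4%, 74.7% and 85.6% (adjusted p = 0.0320).

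*QQS*, a gene found only in *A. thaliana* that affects starch content and is known for naturally varying promoter methylation, held 19 CG sites at 20 to 192 bp. Their levels were 92.6%, 97.9%, 70.4% and 87.2% (adjusted p = 0.0347). SNP 1 stood lowest, and SNP 2 lay closest to mock 1. Of the 19 sites, 17 were lower in the SNP mean. The divergent genes *RGXT3*, a xylosyltransferase of pectin, and AT1G56553, a defensin-like protein, shared the same 10 sites with 95.9%, 91.7%, 61.5% and 76.3%. The remaining promoters were those of *DGK5*, a diacylglycerol kinase, with 94.9%, 97.5%, 77.2% and 81.4%, of the RING finger protein AT5G23110 with 95.5%, 94.9%, 79.6% and 70.9%, and of the lipase *LIP1* with 95.9%, 94.5%, 84.0% and 86.8%. Each of the 10 kept its direction in every alternative in which it was tested. This says little about stability, as none showed overlap between groups and leaving out a library could therefore not turn the sign. The other alternatives drew on the same reads. With limma their adjusted p lay between 0.188 (AT3G45630) and 0.474 (*QQS*), and none of the 10 was tested at depth 10 to 50.

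CHG sites were present in all 10 of these CG promoters and did not enter the CG test, although they lie on the same reads. Their difference was negative in all 10, from -46.8 points at the 2 CHG sites of AT3G45630 to -2.27 points at *LIP1*, with a median of -9.06 points. *RGXT3* and AT1G56553 are counted apart here but share the same 8 CHG sites. Among the 2348 promoters tested in both contexts, 45.4% had a negative CHG difference, and the median was 0.580 points. The 10 had passed for a lower CG level on the same reads, so this comparison is not independent of that choice. AT3G45630 had too few CHG sites to be tested, and none of the other 9 passed the CHG test. CHH sites were present in 5 of them, with the same 2 sites in *RGXT3* and AT1G56553, and 1, *DGK5*, had a negative difference (-4.29 points).

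For CHG, the promoter of *MBR1*, a RING/U-box ubiquitin ligase, was the one lower in SNP. The 8 sites printed for it had 93.8%, 94.6%, 65.7% and 77.9% (adjusted p = 0.00659), and 7 of the 8 were lower. Its CG sites (90.5%, 95.05%, 89.8% and 86.6%) differed less between treatments. The 3 promoters higher in SNP held fewer than 10 CHH sites and were chosen after their values were seen. They belonged to AT4G00315, an F-box protein, whose 7 sites had 31.2%, 52.6%, 80.3% and 70.6%, to the calcium-dependent protein kinase *CPK23*, whose 20 sites had 59.4%, 64.4%, 83.5% and 76.9%, and to AT1G09490, a protein with a Rossmann-fold domain. At the 5 sites printed for AT1G09490 the levels were 81.2%, 84.4%, 100% and 100%, at a depth of 5 to 12 reads per site (adjusted p = 0.0145).

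Although no CHH promoter passed the test, the ones with the largest differences without overlap show the size of variation between libraries. The widest was seen in the interval between the divergent genes *AAH*, an allantoate amidohydrolase that releases nitrogen from purine breakdown, and *EMB1895*, an ARM repeat protein. Its 17 CHH sites, which lie 922 to 999 bp from *AAH* and 859 to 936 bp from *EMB1895*, had 26.9%, 36.2%, 54.4% and 83.6%. The difference was 37.5 points with an SD of 15.3 (depth 6 to 22 reads per site, adjusted p = 0.620), and all 17 sites were higher in the SNP mean. The 4 CHG sites there had 25.0%, 42.6%, 52.8% and 88.1%, and the 2 CG sites 33.3%, 48.0%, 56.0% and 90.0%, so that the libraries had the same order in all 3 contexts. The sites lie within 78 bp and share reads.

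Other CHH differences with SNP higher were found at *PROPEP1*, the precursor of a defence peptide, with 45.0%, 51.4%, 68.3% and 93.1% over 12 sites, and at AT1G23950, a DUF626 protein, with 42.3%, 40.8%, 59.5% and 78.1% over 33 sites. SNP 2 was the highest library at each of these. At AT5G24215, which is uncharacterized, the 12 printed sites had 44.1%, 34.2%, 68.5% and 71.6%, a difference of 30.9 points with an SD of 5.19 and 11 of 12 sites higher. The adjusted p was 0.620 for all 3 promoters.

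The largest CHH differences with SNP lower were smaller in size. *GSTU22*, a glutathione S-transferase, had 77.2%, 58.9%, 42.0% and 47.8% over 10 sites. AT1G53260 and AT1G53265, both uncharacterized, shared 11 sites with 69.9%, 80%, 63.6% and 40.6%, and AT5G54067, a B3 domain protein, had 48.6%, 64.8%, 29.8% and 41.5%. Replicates of a group differed by 10 points or more in at least 1 group in each of these. At *ABCB14*, an ABC transporter, they were closer. The 13 sites printed for it had 74.0%, 67.4%, 48.3% and 51.3%, a difference of -20.9 points with an SD of 3.64, and 10 of 13 were lower (adjusted p = 0.620). Its 6 CG sites were slightly higher in SNP, with 63.0%, 54.2%, 64.6% and 63.8%.

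**Figure D5:**
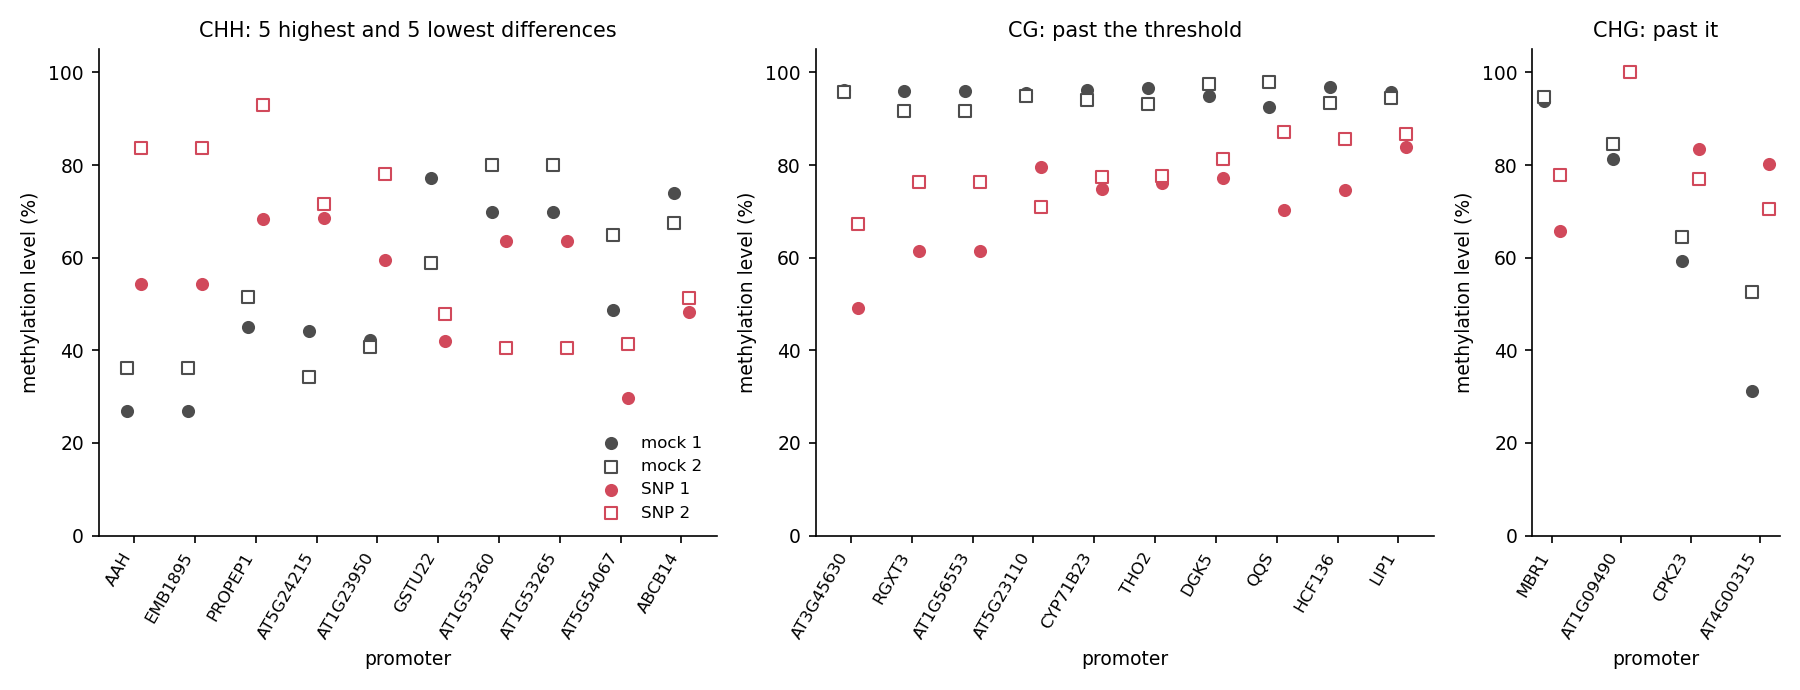
Methylation level per library (vertical axes in percent, starting at 0) of single promoters (horizontal axes), with filled circles for replicate 1, open squares for replicate 2, grey for mock and red for SNP. The left panel gives the 5 promoters with the highest and the 5 with the lowest CHH difference among those without overlap (none past adjusted p = 0.05), the middle panel the 10 CG promoters and the right panel the 4 CHG promoters past the threshold; *AAH* with *EMB1895*, AT1G53260 with AT1G53265 and *RGXT3* with AT1G56553 are plotted from the same sites.

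The promoters with the highest CHH levels came close to the level of CG sites. Upstream of AT3G13700, a protein with an RNA recognition motif, 48 CHH sites within 185 bp had 85.8%, 84.2%, 78.6% and 77.3%. The interval between *ATNTH1*, a DNA glycosylase of base excision repair, and AT2G31460, a B3 domain protein, held 22 sites with 90.9%, 86.4%, 75.8% and 80.9%. In both, the SNP libraries were lower without overlap (SD 1.02 and 3.37, adjusted p = 0.620). AT1G56090, a tetratricopeptide repeat protein, had 76.1%, 76.1%, 89.4% and 88.4% over 10 sites, and *DRP3B*, a dynamin-related protein of organelle division, 84.8%, 80.9%, 86.4% and 86.0% over 11. Thus the same direction was not shared by the most highly methylated promoters.

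At the other end, AT2G15020, AT3G43850, AT3G19520, AT1G36950 and *TT2* had the lowest mean CHH levels, with library values from 19.5% to 34.2%. *TT2* encodes a MYB factor of seed coat pigment synthesis. Its 10 CHH sites had 27.9%, 34.1%, 29.2% and 28.3%, while its 58 CG sites had 94.1%, 92.2%, 94.5% and 93.0%. CG methylation was thus near complete at the same promoter. The largest numbers of CHH sites were held by AT1G53080, a lectin family protein, with 102 sites and levels of 46.5%, 40.9%, 46.8% and 50.6%, and by *LAF3*, a member of the amidohydrolase family, with 89 sites and 51.4%, 58.0%, 55.3% and 58.9%. AT1G27880 (87 sites), AT5G45030 (84) and AT3G51870 (83) had levels between 54.5% and 64.9%. Groups overlapped at 3 of these 5 promoters. Of all 1700 promoters tested for CHH, 28.3% had both SNP libraries above the mock libraries and 10% had both below.

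Genes known for methylated promoters were examined as a list of 11. Of these, 9 held CG sites and 8 had enough to be tested, of which 1 passed, *QQS*, beside 0.232% of all CG promoters tested. Their median CG difference was -1.96 points, compared with -0.964 over all CG promoters tested. *FWA*, a homeodomain factor that delays flowering when it is expressed, had 92.6%, 91.9%, 96.2% and 91.4% over 12 CG sites at 3 to 111 bp. *SDC*, an F-box gene, had 93.5%, 93.9%, 92.1% and 90.7% over 30, and *FIS2*, a Polycomb zinc finger gene expressed in endosperm, 94.4%, 98.3%, 89.0% and 93.7% over 20 (adjusted p = 0.787 and 0.394). All 3 remained highly methylated in each library.

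*ROS1* encodes a DNA glycosylase that removes methylated cytosines, and methylation in its own promoter is known to raise its expression. The 9 CHH sites printed for it, at 2 to 32 bp, had 57.7%, 58.0%, 45.6% and 40.4%. Both SNP libraries were lower, with a difference of -14.8 points (SD 2.59), at 9 of 9 sites. The depth was 7 to 18 reads per site, and the sites lie within 31 bp and share reads. This promoter was 1 site short of the minimum for the test, and with a minimum of 5 sites 0 of 2506 promoters passed. Its 19 CG sites overlapped between groups, with 56.6%, 73.2%, 63.3% and 60.9%. The imprinted gene *AGL36* was the only member of the list with 10 or more CHH sites, and its 21 sites had 33.1%, 36.6%, 38.6% and 34.1%.

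Of 15 genes of the methylation machinery, 4 held counted promoter sites, *NRPD1* and *NRPE1* for the largest subunits of RNA polymerases IV and V, *DCL3* for the small RNA processing enzyme and *MET1*, and 0 of 4 tested in CG, 1 in CHG and 2 in CHH were called. Over all promoters tested the shares called were 0.232%, 0.158% and 0%. The 23 CHH sites of *MET1* had 52.0%, 61.9%, 57.4% and 49.8%. *AGO4*, *AGO6*, *AGO9*, *DRM1* and *DRM2* held none. Among the NO synthesis genes *NIA1*, *NIA2* and *NOA1*, only *NIA2*, a nitrate reductase, held counted sites, 8 in CG with 75.6%, 74.2%, 70.5% and 56.2% (difference -11.5 points, SD 7.16, adjusted p = 0.716). The 9 genes that the study names as losing methylation, which it chose on these samples, and the 7 meristem genes *WUS*, *CLV3*, *CLV1*, *STM*, *UFO*, *CUC2* and *ARR15* held 0 counted promoter sites in every context. With lists of called sites, this says that no upstream cytosine was called in all 4 libraries at this depth, not that methylation was absent. Most promoters held no counted site. Over all 26209 promoters, 21.3% held at least 1 in CG, 17.2% in CHG and 13.7% in CHH.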

How the data were processed

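EM-seq reads of shoot apices (2 mock and 2 SNP libraries, grouped by sample labels) were processed by the authors, whose methods name the Bismark extractor for calling methylated cytosines. The submitters' processing notes name FastQC, Bismark and TAIR10; aligner settings and the rule for listing a site were not given in the sources used here. The deposited lists give per site a methylation level as a fraction and a depth as a count of reads; level times depth was whole in 100% of rows, which gave methylated and unmethylated counts. Site depths summed to 42221751 to 50875710 per library over 3857352 to 4134559 listed nuclear sites. These sums are not numbers of sequencing reads, as a read was counted at each listed site it covered.

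Gene models were those of the RefSeq annotation of TAIR10.1, and 100% of the sites listed in all libraries had the listed context in that assembly. For levels, each site was used once, at its nearest start; for promoter shares and tests, in each promoter holding it. Sites above 50 reads were left out. Levels were compared by exact two-sided permutation tests. Promoters with at least 10 CHH, 5 CG or 5 CHG sites were tested with edgeR 4.0.16 (limma 3.58.1, R 4.3.3) on methylated and unmethylated counts with 1 term per library, Benjamini-Hochberg adjusted within a context over all promoters tested. A read covering several sites was counted at each, so these counts are not independent. The fit was first tested on simulated data, in which 100 promoters per context were given a change of each size. Extra spread between simulated libraries was fixed (beta-binomial overdispersion 0.01). Starting levels were held to a middle range, below the level of most CG promoters (median 88.7%). The simulated CG counts therefore do not describe the test at the high levels of the real CG promoters. At a size of 15 points the fit detected 30 for CG, 10 for CHG and 34 for CHH. At a size of 30 points it detected 94, 80 and 97. Among unchanged promoters it called 3 of 4105 for CG, 4 of 2324 for CHG and 6 of 1500 for CHH. Other steps used python 3.11.15, numpy 2.4.6, pandas 2.3.3, scipy 1.17.1 and matplotlib 3.10.9.

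Among promoters with at least 10 CHH sites, those described were all past the threshold, the 5 with the largest and smallest differences without overlap, the 5 highest and lowest in level, the 5 with most sites, and members of 5 gene lists that held sites. Promoters, lists and printed intervals were chosen with earlier results of these data known. Alternatives were depth limits, site means, a minimum of 4 methylated reads, thinning, overlapping promoters, whole promoters, site minimums, the replicate block, Fisher's exact test, limma and leaving out each library.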

Additional observations from a re-analysis of the deposited data

Results flagged for a closer look

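Promoter sites whose depth passed 50 reads in a library, which the comparisons above leave out, showed a difference in CHH. The 158 such CHH sites, upstream of 18 genes, had 5.28%, 5.15%, 6.20% and 5.71%, given as mock 1, mock 2, SNP 1 and SNP 2. Both SNP libraries were above both mock libraries, by 0.747 points against a pooled SD of 0.253 (exact permutation test, p = 0.33, the smallest possible). Over the corresponding 392 CG and 218 CHG sites, whose pooled reads come mostly from the deepest promoters, the groups overlapped. The sites with the greatest depth lay upstream of AT3G41762 (median depth 1447 reads at 49 CHH sites), AT2G01021 and AT2G01023. At AT3G41762 the CHH level was 4.25%, 4.23%, 4.80% and 4.62%. Single promoters could differ from the pooled value, as the 48 CG sites of AT2G01023 had 80.6%, 76.1%, 62.7% and 66.6% and its 19 CHG sites 47.8%, 44.2%, 36.6% and 39.0%, both lower in SNP without overlap. The 39 CG sites of AT2G07629 had 26.3%, 24.2%, 19.0% and 18.3%. Median depth was 426 reads at the CG sites of AT2G01023 and 73.5 at those of AT2G07629, compared with 9 to 11 at the counted CG sites of promoters. Whether reads from other copies of these sequences were included was not tested. These levels may therefore not be those of single promoters.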

How the results depend on the processing

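Of 98 values under alternatives, 59 stayed within the replicate spread or 1.5 times the count, 34 moved and 5 changed sign. The CG difference was -2.37 points at depth 10 to 50, -2.19 with no upper depth limit and -1.18 with at least 4 methylated reads; the CHG difference was -0.0386, -0.469 and, when thinned, 0.0976 points. Leaving out a library gave -1.59 to -1.26 points for CG, 0.283 to 0.761 for CHG and 1.47 to 3.49 for CHH. The difference in CHH slope was 0.338 points at depth 10 to 50, 0.282 with no upper limit, and -0.641 to 0.361 with a library left out. CHH steps without overlap numbered 5 at depth 10 to 50 and 6 with no upper limit, where 33 added sites in the first 100 bp took its CHH level from 51.8% to 26.8%. The share of promoters with at least 10 CHH sites was 0.389% at depth 10 to 50, 11.3% among whole promoters and 7.79% to 8.30% with a library left out.

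Promoters past the threshold numbered 6 in CHH, 0 in CHG and 2 in CG at depth 10 to 50, where 102, 153 and 507 were tested. With at least 4 methylated reads CHG gave 0 and CG 18. With other site minimums CHG gave 1 (10 sites) and CG 2 (3 sites). Fisher's exact test on pooled reads, which ignores replicates, gave 416 in CHH, 59 in CHG and 454 in CG, and limma gave 2 in CHG and 0 in CG. Leaving out a library gave 0 to 6 in CHH, 0 to 4 in CHG and 0 to 10 in CG. With the replicate block there were 7 in CHH (6 higher), 3 in CHG and 27 in CG (26 lower). Across promoters, deviations of same-numbered libraries had correlations of -0.0243 in CHH, -0.00254 in CHG and -0.000965 in CG. Read sampling within single promoters adds to these deviations, so the correlations cannot decide whether same-numbered libraries shared plants or a batch. The causes were not tested.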
